A study of Mus spretus with 12 samples.

Results

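The proteasome genes examined here are the genes whose array name begins with Psm, then a letter from a to g, then a number, taken from all spots of the arrays that are not control spots. They are 49 of the 37074 gene names on the array, carried by 94 probes of 60 bases each, and 48 of them were tested. The names cover the core particle, the regulatory particle, their assembly chaperones, the activators and 1 inhibitor. They also take in Psmc3ip, which is a recombination factor and not a proteasome gene, and which is described apart. Liver RNA of male Mus spretus of the inbred strain SPRET/EiJ was hybridised to 1-colour Agilent arrays in 3 groups of 4 arrays, and the design text counts 4 mice each for PXDDE and control. The PXDDE mice received Teklad chow that carried p,p'-DDE at 450 mg/kg, dissolved in corn oil, and drank water with Pedro Ximenez must, a grape must that brought 85 mg/L of polyphenols and 31 g/L of glucose and fructose. The DDE mice ate the same p,p'-DDE diet with no must, and the control mice ate Teklad diet with corn oil alone. All groups were 20 months old at the start, were fed for 60 days and were sampled at 22 months. Polyphenols and sugar were given in the same drink, so their parts cannot be told apart. The study's title names a protective effect of the must on liver injury by p,p'-DDE, the lasting breakdown product of the insecticide DDT.

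The 26S proteasome degrades proteins tagged with ubiquitin. Its 20S core is a barrel of alpha and beta rings with the proteolytic sites inside, and its 19S regulatory particle caps the barrel, with a base of ATPases that unfold the substrate and a lid that removes the ubiquitin chain. Interferon exchanges the catalytic beta subunits for inducible ones (the immunoproteasome), which alters the peptides offered to MHC class I. In many cells the transcription factor NFE2L1 raises the subunit genes together when proteasome activity falls short, and hepatocytes are among the cells that need it.

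Values are log2 signals relative to each array's 75th percentile, so 0 is the brightness at that percentile, and changes are differences on this log2 scale. Between 50.12 and 52.01% of spots were well above background on each array, and no spot of a gene was saturated. The number of arrays limits the precision, and p-values cover the spread between the arrays of a group, which may be technical. The 75th percentile of the background-subtracted signal, before this scaling, lay between 691.6 and 709.7 on PXDDE arrays, between 550.6 and 661.8 on DDE arrays and between 492 and 569.9 on control arrays. All 11 hepatocyte markers tested were well above background on every array. The log2 of their summed signal was 12.06 to 12.15 in PXDDE, 11.99 to 12.23 in DDE and 12.31 to 12.44 in control. In PXDDE against control 3 of the 11 were called higher and 7 lower (median -0.21), where all genes gave 31.6% and 39.3%. Markers of other tissues also moved with the groups. The log2 of the summed signal of 12 pancreatic acinar genes was 11.40 to 11.44 in PXDDE, 9.24 to 9.43 in DDE and 9.63 to 9.73 in control. That of 10 skeletal muscle genes was 6.94 to 7.03 in PXDDE, 7.38 to 7.50 in DDE and 8.78 to 8.82 in control, and that of 9 adrenal cortex genes was 5.50 to 5.64, 1.83 to 1.88 and 4.76 to 4.87 in the same order. The adrenal genes Cyp11a1 and Cyp11b1 were above background on none of the DDE arrays, and Cyp11b2 on no array. These genes are read from whole liver pieces, in which fewer cells of a type and less RNA per cell cannot be told apart, and the part of other tissues in the proteasome values was not tested.

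Proteasome genes sat among the brighter genes of the liver, with a median level of 4.93, at the 90.0th percentile of the 18678 genes tested, and a median within-group SD of 0.075, against 0.109 over all genes tested. With p,p'-DDE, 27 of the 48 tested members were called higher than in control and 2 lower, at an adjusted p under 0.05 (limma, Benjamini-Hochberg over all genes tested). Over all genes, 24.0% were called higher and 26.3% lower in the same comparison. With must added to p,p'-DDE, 10 members were called higher than in DDE alone and 17 lower, where all genes gave 20.2% and 29.7%. In PXDDE against control 25 were called higher and 13 lower, where all genes gave 31.6% and 39.3%. Members whose groups did not overlap numbered 24 higher and 1 lower in DDE against control (all genes 22.3% and 24.1%), 9 and 17 in PXDDE against DDE (18.3% and 26.4%), and 24 and 9 in PXDDE against control (28.9% and 36.3%). Since the members are bright, they were also set beside the 2812 genes at a mean level of 4 or more, a limit chosen after the values were seen. Of those, 31.9% were called higher and 30.1% lower in DDE against control, 18.0% and 49.6% in PXDDE against DDE, and 33.1% and 50.2% in PXDDE against control. The share of members called higher is above both in DDE against control and in PXDDE against control, and near both in PXDDE against DDE. The share called lower in the comparisons with PXDDE lies below that of the bright genes. The 3 comparisons share their arrays, so their values are given side by side and not as support for each other.

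The median change of the 48 members was 0.19 in DDE against control, -0.05 in PXDDE against DDE and 0.15 in PXDDE against control, while the medians of all genes tested were -0.02, -0.04 and -0.06. Both the rises and the falls depended on how the arrays were scaled. Over 6 scalings, members called higher numbered 27 to 45 in DDE against control. They numbered 10 to 23 in PXDDE against DDE and 25 to 40 in PXDDE against control. In each comparison no other scaling gave fewer members higher, or more lower, than the 75th percentile. Calls made with it were thus more apt to hold for rises than for falls, and their survival does not compare the 2. Of the 27 members called higher in DDE against control, 20 were called higher under all 6 ways of scaling tried, and so were 10 of 10 in PXDDE against DDE and 23 of 25 in PXDDE against control. Of the 17 called lower in PXDDE against DDE, 2 were called lower under all 6, Psmg4 and Psmc3ip. They were also the 2 of 13 that held in PXDDE against control. Centring on the array median differs from the 75th percentile by 1 constant per array, so it moves all genes of an array alike. Leaving that scaling out, a count made after the values were seen, 5 of the 17 and 4 of the 13 held, with Psmd9, Psme3 and Psmg3 added in PXDDE against DDE and Psme3 and Psmg3 in PXDDE against control, and in DDE against control the fall of Psmg4 held and that of Psmc3ip did not. Of the 17 falls in PXDDE against DDE, 12 kept their sign under all 6 scalings and 5 (Psma2, Psma3, Psma4, Psma6 and Psmb10) did not. With quantile normalization, 23 members were called higher and 6 lower in PXDDE against DDE, and 52.2% of all calls were higher, against 40.6% with the 75th percentile. The authors' deposited values gave 21 higher and 6 lower members there, with 52.6% of all calls higher. Centring on the array median gave 45 higher and 0 lower in DDE against control, where 81.3% of all calls were higher, against 47.7% with the 75th percentile, and 40 higher and 2 lower in PXDDE against control, where 73.1% were, against 44.5%. This centring moved the median of all genes to 0.21, 0.10 and 0.32 in the 3 comparisons, and that of the members to 0.42, 0.09 and 0.53. Relative to the median of all genes, which such a constant cannot alter, the members stood at 0.22, -0.01 and 0.21.

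**Figure D1:**
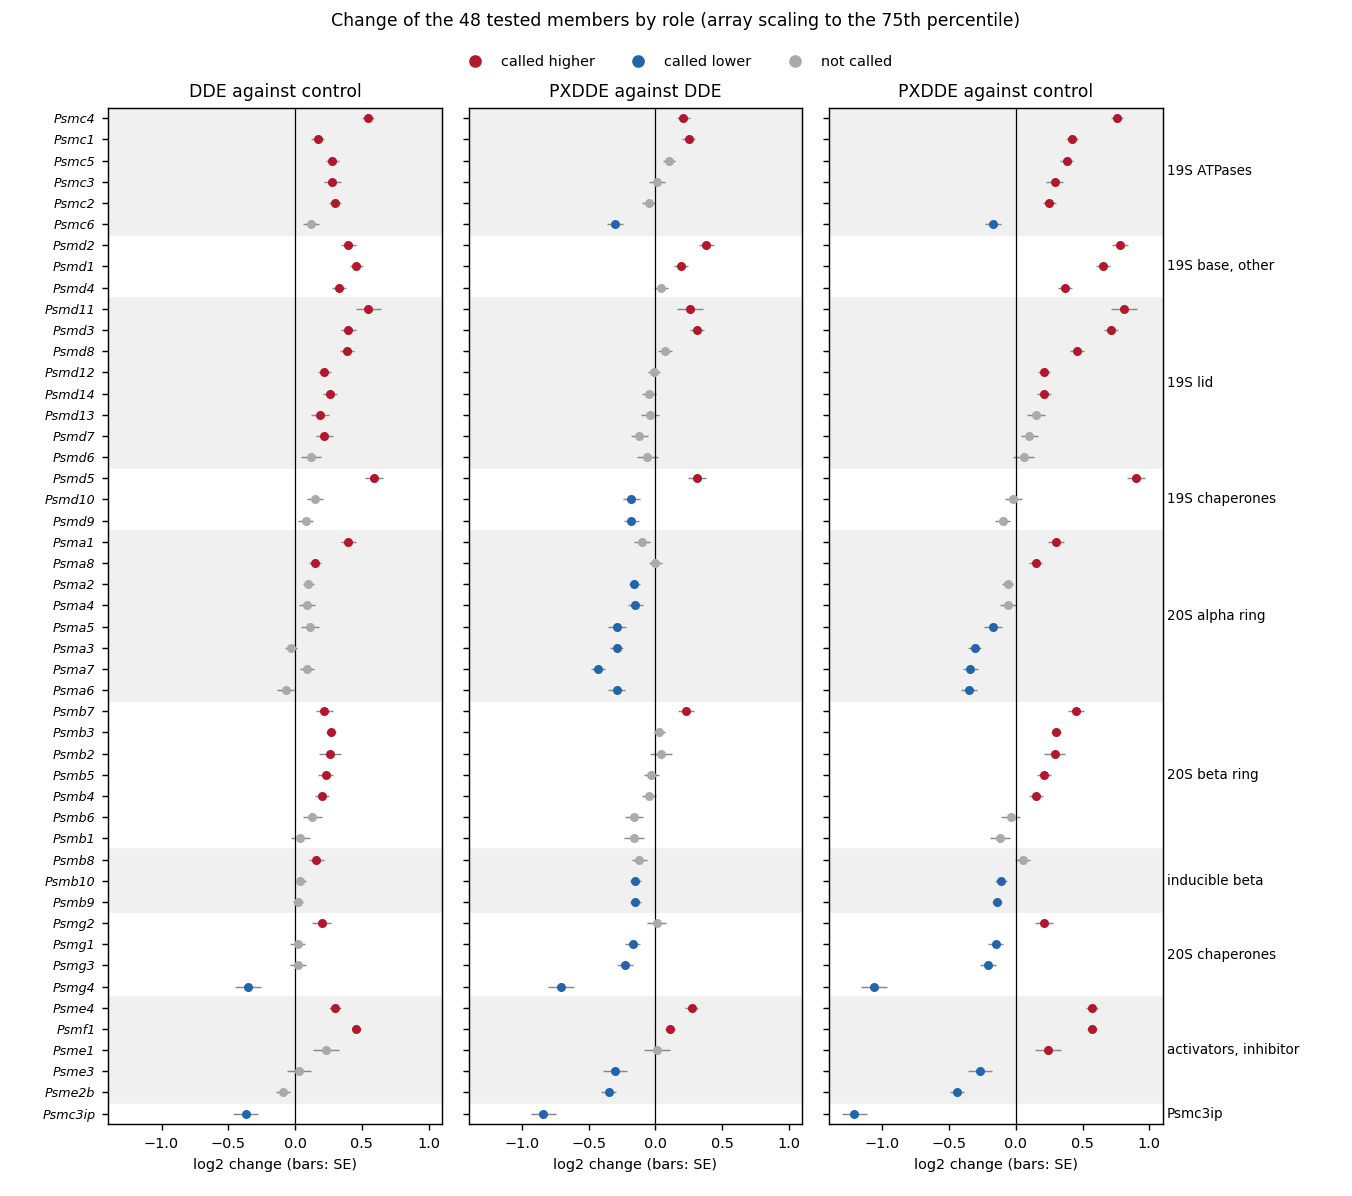
Log2 change of each of the 48 tested members in the 3 comparisons, with bars of 1 SE, grouped by role and ordered within a role by the change in PXDDE against control. In DDE against control 15 of the 17 genes of the 19S particle are called higher (13 to 17 over the 6 scalings) and none lower, while 7 of the 15 genes of the 20S core are called higher (7 to 15). Most calls to the left of 0 are lost under at least 1 other scaling, and those of Psmg4 and Psmc3ip in PXDDE against DDE and against control do not.

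The 6 ATPases of the 19S base form the ring that unfolds substrates and opens the gate of the core. With p,p'-DDE, 5 of them were called higher than in control (all genes 24.0%), with a median change of 0.28. Psmc4, an ATPase of this ring, changed most of the 6. It measured 4.42, 4.50, 4.52 and 4.52 on the PXDDE arrays, 4.36, 4.22, 4.25 and 4.28 on the DDE arrays and 3.75, 3.70, 3.69 and 3.79 on the control arrays. No array of one group overlapped with another group. The change was 0.55 (SE 0.045, adjusted p = 2.60e-06, limma) in DDE against control, a 1.46-fold rise, and 0.21 (adjusted p = 0.00233, limma) in PXDDE against DDE, which brought PXDDE to 1.69-fold of control (adjusted p = 5.05e-08, limma). Its probe lies on the minus strand of chr7:28827132-28827373 (mm9, the build of the array design) and its 60 bases span 242 bases of the genome, as those of a probe over a splice junction do. It is printed with the probes of Psmd11 and Psmd5 because these are the probes behind the 3 largest rises of members in DDE against control. The letters are those of the array design, and Mus spretus bases were not compared with them.
Psmc4: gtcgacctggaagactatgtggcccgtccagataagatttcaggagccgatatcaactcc
Psmd11: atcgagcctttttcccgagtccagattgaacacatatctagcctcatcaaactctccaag
Psmd5: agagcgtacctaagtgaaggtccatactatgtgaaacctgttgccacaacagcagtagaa

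The other ATPases followed at smaller size. Psmc1, whose tail helps to open the gate of the core, measured 6.86, 6.86, 6.91 and 6.90 on the PXDDE arrays, 6.66, 6.60, 6.72 and 6.54 on the DDE arrays and 6.55, 6.45, 6.45 and 6.39 on the control arrays. Every PXDDE array was above every DDE and control array, and the DDE and control ranges overlapped at 1 array of each. Its change was 0.17 in DDE against control and 0.25 (adjusted p = 0.00116, limma) in PXDDE against DDE. Psmc5, another ATPase of the ring, measured 4.73, 4.74, 4.76 and 4.84 on the PXDDE arrays, 4.67, 4.63, 4.75 and 4.65 on the DDE arrays and 4.43, 4.45, 4.36 and 4.33 on the control arrays. DDE and PXDDE arrays overlapped, and both were above control. Psmc2 and Psmc3 changed by 0.30 and 0.28 in DDE against control and by -0.05 and 0.01 in PXDDE against DDE. Psmc2 measured 5.58, 5.46, 5.49 and 5.49 on the PXDDE arrays, 5.51, 5.56, 5.63 and 5.53 on the DDE arrays and 5.29, 5.30, 5.26 and 5.16 on the control arrays. Both p,p'-DDE groups were above control and overlapped with each other. Psmc6 stood apart from this ring, with 4.77, 4.83, 4.68 and 4.90 on the PXDDE arrays, 5.16, 5.04, 5.11 and 5.05 on the DDE arrays and 5.09, 4.97, 4.88 and 4.93 on the control arrays. All PXDDE arrays were below all DDE arrays and overlapped with control. In PXDDE against DDE Psmc6 was called lower by 0.30 (adjusted p = 0.00164, limma), a call that did not hold under every scaling.

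The 3 other subunits of the base are the scaffold subunits Psmd1 and Psmd2, which dock ubiquitin receptors and shuttles, and Psmd4, itself a ubiquitin receptor. All 3 were called higher with p,p'-DDE (all genes 24.0%), with changes of 0.46, 0.40 and 0.33. Psmd2 measured 5.07, 5.19, 5.08 and 5.18 on the PXDDE arrays, 4.87, 4.68, 4.75 and 4.72 on the DDE arrays and 4.36, 4.39, 4.24 and 4.41 on the control arrays. The 3 groups did not overlap, and the step to PXDDE from DDE (0.38, SE 0.057, adjusted p = 2.39e-04, limma) was about as large as the step to DDE from control (0.40). Psmd1 measured 5.47, 5.31, 5.31 and 5.35 on the PXDDE arrays, 5.15, 5.17, 5.17 and 5.19 on the DDE arrays and 4.76, 4.65, 4.79 and 4.63 on the control arrays. Again no group overlapped with another, and PXDDE stood 1.57-fold above control. Psmd4 measured 6.02, 5.97, 6.02 and 6.03 on the PXDDE arrays, 6.08, 5.95, 6.00 and 5.85 on the DDE arrays and 5.66, 5.69, 5.62 and 5.57 on the control arrays. Here the PXDDE and DDE arrays overlapped, with a change of 0.04 between them.

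Of the 8 genes of the lid, 7 were called higher in DDE against control (all genes 24.0%), with a median of 0.24. The brightest probe of the eighth, Psmd6, changed by 0.12 (adjusted p = 0.222, limma, and 0.0377 without control array 1). Its other kept probes were called higher, by 0.22 and 0.26 (adjusted p = 0.00162 and 0.00281, limma). In PXDDE against control they changed by 0.29 and 0.33, and the brightest by 0.06. Psmd11, a lid subunit that raises 26S assembly when overexpressed in human cells and in worms, measured 3.40, 3.70, 3.50 and 3.72 on the PXDDE arrays, 3.37, 3.31, 3.44 and 3.16 on the DDE arrays and 2.91, 2.63, 2.88 and 2.65 on the control arrays. Both p,p'-DDE groups were above all control arrays, and PXDDE and DDE overlapped at 1 PXDDE array. The change was 0.55 (SE 0.095) in DDE against control and 0.81 in PXDDE against control, a 1.75-fold difference (adjusted p = 1.25e-05, limma). The change in PXDDE against DDE was 0.26 (adjusted p = 0.0387, limma), and the adjusted p was 0.0502 to 0.108 without PXDDE array 2 or 4, or DDE array 1, 2 or 4, and 0.107 with the slide as a block. The Psmd11 probe printed above spans chr11:80283406-80283920 on the plus strand (mm9). Psmd3, a scaffold of the lid, measured 6.11, 6.22, 6.18 and 6.20 on the PXDDE arrays, 5.99, 5.78, 5.82 and 5.87 on the DDE arrays and 5.43, 5.53, 5.41 and 5.50 on the control arrays. The 3 groups did not overlap, and the changes were 0.40 in DDE against control and 0.31 (adjusted p = 5.02e-04, limma) in PXDDE against DDE.

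Psmd8, which in yeast joins the lid last, measured 5.21, 5.28, 5.23 and 5.24 on the PXDDE arrays, 5.09, 5.16, 5.23 and 5.17 on the DDE arrays and 4.66, 4.79, 4.77 and 4.89 on the control arrays. The PXDDE and DDE arrays overlapped, and both groups were above control. The remaining lid genes called higher in DDE against control were Psmd14, the deubiquitinase that cuts the chain from the substrate (0.26), Psmd12 (0.22), Psmd7, the partner of Psmd14 (0.22), and Psmd13 (0.19). In PXDDE against DDE these 4 changed by -0.05, -0.01, -0.12 and -0.04, none of them called. Control array 1 read 5.16 for Psmd13, where the other 3 read 5.34 to 5.36. The call of Psmd13 was lost without that array (0.14, adjusted p = 0.097, limma), without DDE array 1 or 4 or control array 2, and with the slide as a block (adjusted p = 0.0693, limma).

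The 3 chaperones Psmd5, Psmd9 and Psmd10 hold the base together while it assembles. Psmd5, which binds Psmc2 on the way, had the largest rise of the 48 members. It measured 2.25, 2.50, 2.30 and 2.48 on the PXDDE arrays, 2.14, 2.04, 2.10 and 2.01 on the DDE arrays and 1.43, 1.54, 1.39 and 1.56 on the control arrays. No groups overlapped. The change was 0.59 (SE 0.066, adjusted p = 2.58e-05, limma) in DDE against control, 0.31 (adjusted p = 0.00244, limma) in PXDDE against DDE and 0.90 in PXDDE against control, a 1.87-fold difference. Its probe lies at chr2:34708108-34708167 on the minus strand (mm9). Of the 3 chaperones 1 was called higher in DDE against control, 1 higher and 2 lower in PXDDE against DDE, and 1 higher in PXDDE against control. For all genes the shares higher and lower were 24.0% and 26.3%, 20.2% and 29.7%, and 31.6% and 39.3% in this order. Psmd10 (gankyrin), which binds Psmc4, and Psmd9 changed by 0.15 and 0.08 in DDE against control, neither called, and both were called lower by 0.18 in PXDDE against DDE under the 75th percentile. The call of Psmd9 was lost with median centring alone among the scalings, and that of Psmd10 also with quantile normalization, normexp and the deposited values. Psmd10 measured 3.00, 2.82, 2.81 and 2.98 on the PXDDE arrays, 3.12, 3.07, 3.07 and 3.04 on the DDE arrays and 3.08, 2.87, 2.89 and 2.85 on the control arrays. Psmd9 measured 1.38, 1.55, 1.43 and 1.54 on the PXDDE arrays, 1.77, 1.57, 1.65 and 1.63 on the DDE arrays and 1.56, 1.49, 1.58 and 1.66 on the control arrays. Both were lower on every PXDDE array than on any DDE array. The adjusted p of Psmd10 was over 0.05 without PXDDE array 2 or 3 or any 1 DDE array (up to 0.101, limma) and with the slide as a block (0.0969), and that of Psmd9 without PXDDE array 1 or 3 or DDE array 1 (up to 0.0644).

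**Figure D2:**
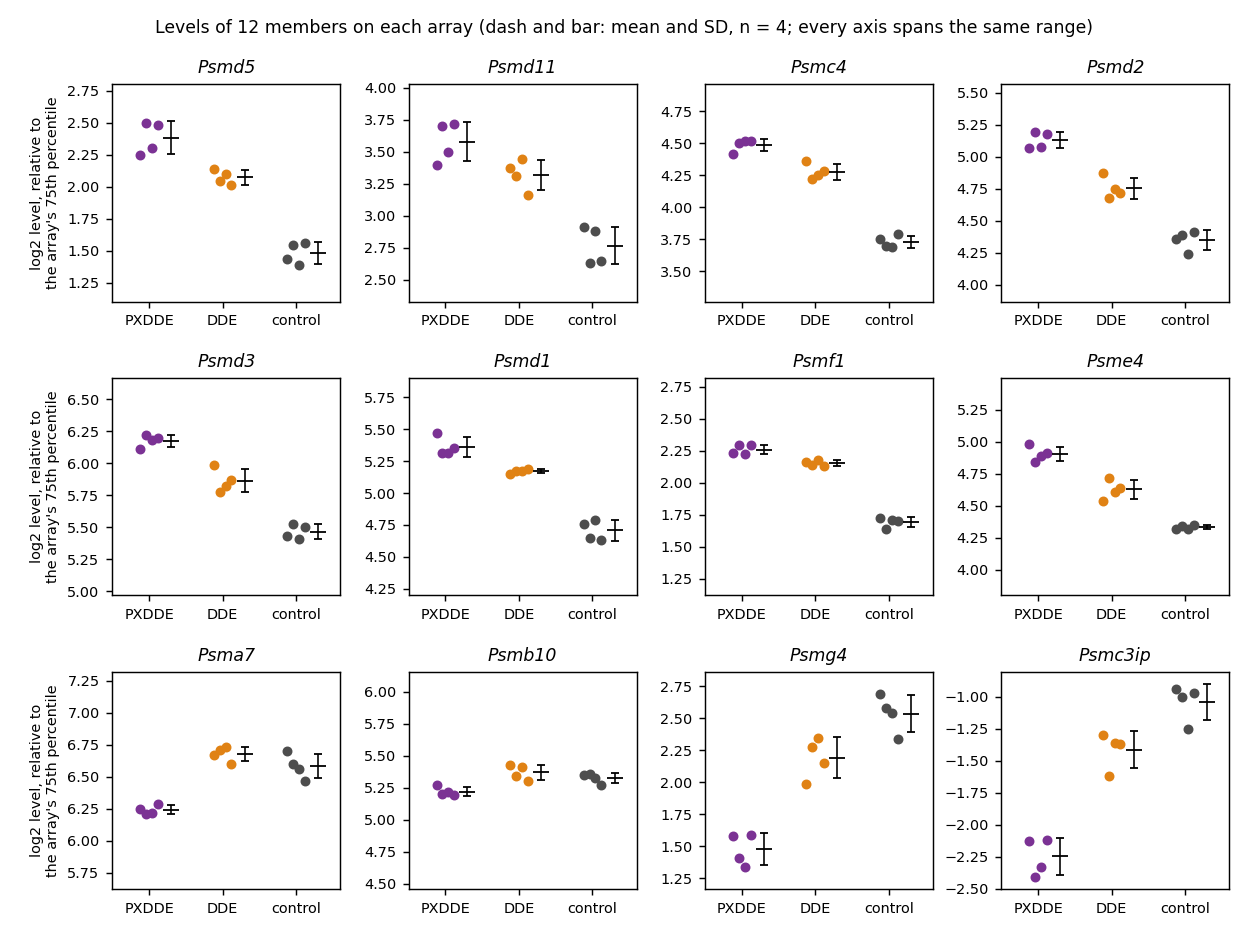
Log2 level of 12 members on each array, 1 point per array, with the mean and SD of each group of 4 beside them, and axes of equal span. Psmd5, Psmc4, Psmd2, Psmd3, Psmd1, Psmf1 and Psme4 are highest in PXDDE, then in DDE, then in control, without overlap, and Psmg4 and Psmc3ip are lowest in PXDDE. Psma7 and Psmb10 lie lower in PXDDE here, and their changes against control turn to 0.14 and 0.11 with quantile normalization.

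In the alpha ring of the core, whose subunits form the gate, 2 of 8 genes were called higher in DDE against control, with a median of 0.10. That is near the 24.0% of all genes called higher there. Psma1 had the larger rise of these 2. It measured 4.96, 5.02, 4.86 and 5.06 on the PXDDE arrays, 5.17, 5.04, 5.07 and 5.03 on the DDE arrays and 4.72, 4.72, 4.71 and 4.56 on the control arrays. Both p,p'-DDE groups were above control, by 0.40 in DDE (adjusted p = 1.85e-04, limma) and 0.30 in PXDDE. Control array 4 stood below the other 3 control arrays. Psma8, the alpha subunit of testis, was called higher by 0.15 at a mean level of 1.11, a call lost without DDE array 1 or 4 or control array 2 or 3 (adjusted p up to 0.0813, limma) or with the slide as a block (0.0565).

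The other 6 alpha genes changed by -0.07 to 0.11 in DDE against control by their brightest probes, none of them called. The other kept probes of Psma4 were each called higher there, by 0.24, 0.19 and 0.15 (adjusted p = 0.00497, 0.0145 and 0.0398, limma). For Psma3, a dim probe at a level of -3.11 was called lower, by 0.35 (adjusted p = 0.0318, limma). In PXDDE against DDE 6 of 8 alpha genes were called lower, with a median of -0.22, as were 5 with normexp, while quantile normalization gave 2 higher and 0 lower, and the deposited values 2 higher and 1 lower. In PXDDE against control 2 were called higher and 4 lower, and 4 and 0 with quantile normalization. Psma7 measured 6.25, 6.21, 6.22 and 6.29 on the PXDDE arrays, 6.67, 6.71, 6.73 and 6.60 on the DDE arrays and 6.70, 6.60, 6.56 and 6.47 on the control arrays. Every PXDDE array was below every DDE and control array, with a change of -0.43 (SE 0.053, adjusted p = 4.75e-05, limma) against DDE. Psma3 measured 5.85, 5.73, 5.66 and 5.79 on the PXDDE arrays, 6.03, 6.03, 6.08 and 6.04 on the DDE arrays and 6.11, 6.12, 6.07 and 5.99 on the control arrays. Psma6 measured 6.10, 5.96, 6.00 and 6.09 on the PXDDE arrays, 6.33, 6.30, 6.38 and 6.30 on the DDE arrays and 6.57, 6.37, 6.35 and 6.28 on the control arrays. Both were below DDE and control on every PXDDE array, by 0.29 against DDE. Psma5 measured 5.25, 5.21, 5.05 and 5.29 on the PXDDE arrays, 5.54, 5.41, 5.49 and 5.51 on the DDE arrays and 5.52, 5.42, 5.31 and 5.25 on the control arrays. Its PXDDE arrays were below the DDE arrays and overlapped the control range. Psma2 and Psma4 were called lower by 0.16 and 0.15 in PXDDE against DDE, and higher by 0.16 and 0.17 after quantile normalization. The call of Psma4 was also lost without any 1 PXDDE or DDE array, or control array 2 or 3 (adjusted p up to 0.127, limma), and with the slide as a block (0.150).

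Among the 7 constitutive beta genes 5 were called higher and none lower in DDE against control (all genes 24.0% and 26.3%). Their median change was 0.22. Psmb3, a structural subunit, measured 6.62, 6.59, 6.59 and 6.66 on the PXDDE arrays, 6.64, 6.53, 6.61 and 6.55 on the DDE arrays and 6.33, 6.34, 6.26 and 6.33 on the control arrays. Psmb4, another structural subunit, measured 6.04, 6.01, 5.95 and 6.09 on the PXDDE arrays, 6.16, 6.04, 6.10 and 5.99 on the DDE arrays and 5.96, 5.84, 5.87 and 5.81 on the control arrays. Both were higher than control on all DDE arrays, by 0.27 and 0.20. Psmb1 was not called in any comparison under the 75th percentile.

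The beta subunits Psmb5, Psmb6 and Psmb7 carry the active sites: Psmb5 cuts after hydrophobic residues, Psmb6 after acidic ones and Psmb7 after basic ones. Psmb5 measured 5.11, 5.27, 5.16 and 5.26 on the PXDDE arrays, 5.33, 5.17, 5.21 and 5.18 on the DDE arrays and 4.96, 5.01, 4.92 and 5.08 on the control arrays. It was higher than control in both p,p'-DDE groups, by 0.23 in DDE and 0.21 in PXDDE. Psmb7 measured 5.11, 5.29, 5.21 and 5.32 on the PXDDE arrays, 5.01, 4.94, 5.07 and 5.02 on the DDE arrays and 4.74, 4.77, 4.71 and 4.93 on the control arrays. Its 3 groups did not overlap, with changes of 0.22 (adjusted p = 0.0106, limma) in DDE against control and 0.23 (adjusted p = 0.00903, limma) in PXDDE against DDE, and it was the 1 gene of the core called higher in PXDDE against DDE. Psmb6 measured 7.15, 7.15, 7.10 and 7.30 on the PXDDE arrays, 7.50, 7.24, 7.35 and 7.27 on the DDE arrays and 7.30, 7.26, 7.14 and 7.14 on the control arrays. The groups overlapped, and Psmb6 was not called in any comparison with the 75th percentile.

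The inducible subunits Psmb8, Psmb9 and Psmb10 take the places of Psmb5, Psmb6 and Psmb7. Of these 3, 1 was called higher in DDE against control (median 0.04), 2 lower in PXDDE against DDE (median -0.15) and 2 lower in PXDDE against control (median -0.11), and the falls depended on the scaling. Over all genes 24.0% were called higher in the first comparison, and 29.7% and 39.3% lower in the other 2. The probes of the first pair cover related stretches, and capitals mark the bases that are the same in both when they are aligned without gaps, 31 of 50 aligned bases. They are shown because the pair is compared within arrays, and the other letters are what sets the probes apart. The Psmb5 probe lies at chr14:55233161-55233220 on the minus strand and the Psmb8 probe at chr17:34337771-34337830 on the plus strand (mm9).
Psmb5: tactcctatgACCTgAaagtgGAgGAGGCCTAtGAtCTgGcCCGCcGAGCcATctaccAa
Psmb8: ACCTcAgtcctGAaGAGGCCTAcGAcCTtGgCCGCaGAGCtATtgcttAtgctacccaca

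Psmb8 measured 3.62, 3.72, 3.60 and 3.77 on the PXDDE arrays, 3.86, 3.71, 3.80 and 3.80 on the DDE arrays and 3.60, 3.63, 3.57 and 3.72 on the control arrays. It was called higher in DDE against control by 0.16 (adjusted p = 0.0287, limma), with groups that overlapped, and the call was lost without DDE array 1, 3 or 4 or control array 1, 2 or 3 (adjusted p up to 0.0796, limma). Psmb9 measured 3.88, 3.91, 3.85 and 3.93 on the PXDDE arrays, 4.03, 4.01, 4.09 and 4.05 on the DDE arrays and 3.99, 4.06, 4.00 and 4.07 on the control arrays. Psmb10 measured 5.27, 5.20, 5.22 and 5.19 on the PXDDE arrays, 5.43, 5.34, 5.41 and 5.30 on the DDE arrays and 5.35, 5.36, 5.33 and 5.27 on the control arrays. Both were lower on every PXDDE array than on any DDE array, by 0.15 (adjusted p = 0.00598 and 0.0125, limma), and both calls were lost under other scalings, where the change of Psmb10 was 0.07 (quantile) and 0.11 (deposited values). Markers of immune cells, which hold much immunoproteasome, were mostly lower in PXDDE than in control. Called lower there were 13 of 13 Kupffer cell and macrophage genes and 9 of 9 tested T and NK cell genes. Of the tested B and plasma cell genes 5 of 6 were. In DDE against control 11, 8 and 4 of these genes were called lower, and in PXDDE against DDE 11, 4 and 3. All genes gave 39.3%, 26.3% and 29.7% lower in the 3 comparisons as named here. Of 10 tested neutrophil and monocyte genes, 9 were called lower and 1 higher both in PXDDE against control and in PXDDE against DDE. In DDE against control 5 of them were called lower and 1 higher. The log2 of the summed signal of the Kupffer cell and macrophage genes was 5.96 to 6.04 in PXDDE, 6.37 to 6.46 in DDE and 6.70 to 6.78 in control. In the same order it was 4.65 to 4.79, 4.62 to 5.38 and 5.76 to 5.85 for T and NK cells. For B and plasma cells it was 1.07 to 1.57, 1.70 to 1.89 and 2.83 to 2.86. The T cell gene Cd8a and the B and plasma cell genes Blk and Tnfrsf17 were above background on none of the 12 arrays. Their part in the values of Psmb8, Psmb9 and Psmb10 was not tested.

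Whether the inducible genes changed relative to their constitutive partners was asked within each array. Psmb10 minus Psmb7 was 0.15, -0.09, 0.00 and -0.13 on the PXDDE arrays, 0.42, 0.40, 0.34 and 0.28 on the DDE arrays and 0.60, 0.60, 0.62 and 0.34 on the control arrays. The PXDDE arrays were below all others, and 1 control array lay within the DDE range. The difference was lower by 0.56 in PXDDE than in control and by 0.38 than in DDE, each with an exact permutation p of 0.0286 over 4 against 4 arrays, the smallest such a design can give, and an adjusted p of 0.0643 over the 9 tests of this kind. Psmb8 minus Psmb5 was -1.49, -1.55, -1.57 and -1.49 on the PXDDE arrays, -1.47, -1.47, -1.41 and -1.38 on the DDE arrays and -1.35, -1.39, -1.35 and -1.35 on the control arrays. It was lower by 0.16 in PXDDE than in control, with the same exact permutation p of 0.0286 and adjusted p of 0.0643. Psmb9 minus Psmb6 differed by -0.10 in PXDDE against control (exact permutation p = 0.143). None of the 9 tests passed after adjustment with the 75th percentile. After quantile normalization, 8 of 9 did, with adjusted exact permutation p-values of 0.0321, and there Psmb9 minus Psmb6 was lower by 0.53 in PXDDE than in control.

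**Figure D3:**
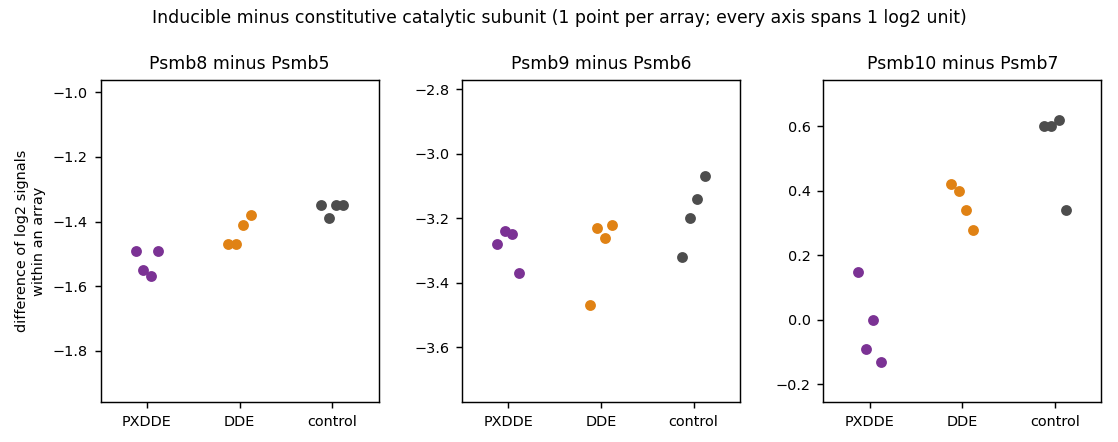
Difference of the log2 signals of an inducible and its constitutive catalytic subunit within each array, 1 point per array, in PXDDE, DDE and control; the axes have equal spans, and the position of an axis reflects the probes and not the amounts. Psmb10 minus Psmb7 lies between -0.13 and 0.15 in PXDDE, 0.28 and 0.42 in DDE, and 0.34 and 0.62 in control.

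The chaperones Psmg1 to Psmg4 assemble the alpha ring. Of these 4, 1 was called higher and 1 lower in DDE against control, 0 and 3 in PXDDE against DDE, and 1 and 3 in PXDDE against control. The shares of all genes were 24.0% and 26.3%, 20.2% and 29.7%, and 31.6% and 39.3%. Psmg4 had the largest fall among the proteasome genes. It measured 1.58, 1.41, 1.34 and 1.59 on the PXDDE arrays, 1.99, 2.28, 2.35 and 2.15 on the DDE arrays and 2.69, 2.58, 2.54 and 2.34 on the control arrays. All PXDDE arrays were below all DDE arrays, and 1 control array lay within the DDE range. The change was -0.35 (adjusted p = 0.0112, limma) in DDE against control, -0.71 (SE 0.097, adjusted p = 1.07e-04, limma) in PXDDE against DDE and -1.06 in PXDDE against control, 2.08-fold lower. The call in DDE against control was lost with median centring alone. Its partner Psmg3 measured 2.67, 2.66, 2.62 and 2.79 on the PXDDE arrays, 3.07, 2.85, 2.91 and 2.82 on the DDE arrays and 2.92, 2.92, 2.86 and 2.89 on the control arrays. Psmg1 measured 4.75, 4.71, 4.60 and 4.58 on the PXDDE arrays, 4.78, 4.86, 4.91 and 4.77 on the DDE arrays and 4.91, 4.79, 4.80 and 4.74 on the control arrays. Both were lower on every PXDDE array than on any DDE array, and both were called lower in PXDDE against DDE, by 0.23 and 0.17. The call of Psmg3 was lost with median centring alone among the scalings, and that of Psmg1 also with quantile normalization and the deposited values. The call of Psmg1 was lost too without PXDDE array 3 or 4 or DDE array 2 or 3 (adjusted p up to 0.0836, limma) and with the slide as a block (0.0789). Psmg2, the partner of Psmg1, measured -1.11, -1.25, -1.19 and -1.22 on the PXDDE arrays, -1.32, -1.19, -1.13 and -1.18 on the DDE arrays and -1.32, -1.33, -1.35 and -1.61 on the control arrays. It was called higher by 0.20 in DDE against control at a level near the lower end of the members, and control array 4 was below the other 3. Without that array the change was 0.13 (adjusted p = 0.0738, limma), and without DDE array 2, 3 or 4 the adjusted p was up to 0.0923. Another kept Psmg2 probe, at a level of -1.91, changed by -0.57 in DDE against control (adjusted p = 1.28e-04, limma) and by -0.74 in PXDDE against control. The remaining one changed by 0.21 in DDE against control (adjusted p = 0.293, limma).

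The 5 activators and inhibitors act on the open ends of the core. In DDE against control 2 of them were called higher and 0 lower, in PXDDE against DDE 2 and 2, and in PXDDE against control 3 and 2, with medians of 0.23, 0.01 and 0.24. Beside these stand 24.0% and 26.3%, 20.2% and 29.7%, and 31.6% and 39.3% of all genes. Psmf1, an inhibitor of the core in the test tube, measured 2.23, 2.29, 2.22 and 2.29 on the PXDDE arrays, 2.16, 2.14, 2.18 and 2.13 on the DDE arrays and 1.72, 1.64, 1.71 and 1.70 on the control arrays. The groups did not overlap, and the change was 0.46 (SE 0.037, adjusted p = 2.14e-06, limma) in DDE against control. The change of 0.11 in PXDDE against DDE (adjusted p = 0.0319, limma) lost its call without PXDDE array 2 or 4 or DDE array 2 or 4 (adjusted p up to 0.0888, limma) and with the slide as a block (0.0790). Psme4, an activator known for its role in male germ cells and DNA repair, measured 4.98, 4.84, 4.89 and 4.91 on the PXDDE arrays, 4.54, 4.72, 4.61 and 4.64 on the DDE arrays and 4.32, 4.34, 4.32 and 4.35 on the control arrays. It also rose at each step without overlap, by 0.30 in DDE against control and 0.27 in PXDDE against DDE. The interferon-inducible activator of Psme1 and Psme2 is represented by Psme1 and by Psme2b, a copy of Psme2, and the 2 copies cannot be told apart with these names. Psme1 measured 5.37, 5.63, 5.43 and 5.69 on the PXDDE arrays, 5.75, 5.33, 5.47 and 5.53 on the DDE arrays and 5.36, 5.25, 5.17 and 5.37 on the control arrays. Psme2b measured 6.36, 6.33, 6.29 and 6.41 on the PXDDE arrays, 6.79, 6.62, 6.76 and 6.62 on the DDE arrays and 6.84, 6.84, 6.72 and 6.75 on the control arrays. Psme1 was called higher by 0.24 in PXDDE against control, and Psme2b lower by 0.44, a fall that turned to 0.05 both with quantile normalization and with the deposited values. The DDE arrays of Psme1 overlapped with both other groups. The call of Psme1 was lost without PXDDE array 2 or 4, DDE array 3 or 4, or control array 2 or 3 (adjusted p up to 0.116, limma). Psme3, the nuclear activator, measured 1.47, 1.74, 1.57 and 1.86 on the PXDDE arrays, 2.14, 1.90, 1.87 and 1.94 on the DDE arrays and 2.00, 1.95, 1.80 and 2.00 on the control arrays. All PXDDE arrays were below all DDE arrays and overlapped with control. It was called lower by 0.30 in PXDDE against DDE, and its second probe did not follow, changing by 0.12.

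The last names are Psmc3ip and Psmb11. Psmc3ip, a cofactor of strand exchange in meiosis, measured -2.13, -2.41, -2.33 and -2.12 on the PXDDE arrays, -1.30, -1.62, -1.36 and -1.37 on the DDE arrays and -0.94, -1.00, -1.25 and -0.97 on the control arrays. The groups did not overlap, and the change was -0.37 in DDE against control, a call lost with median centring and with the deposited values, and -0.84 (adjusted p = 3.03e-05, limma) in PXDDE against DDE. Psmb11, the beta subunit of the thymus, was above background on none of the arrays, with signals of -7.14 to -6.48, and was not tested.

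Set side by side, the 17 genes of the 19S particle and the 15 genes of the 20S core moved unequally. In DDE against control 15 of the 17 and 7 of the 15 were called higher, with medians of 0.28 and 0.13 and no gene of either called lower. Over all genes 24.0% were called higher there and 26.3% lower. In PXDDE against control 13 of the 17 and 7 of the 15 were called higher, 1 and 4 lower, with medians of 0.37 and -0.04. Here all genes gave 31.6% higher and 39.3% lower, and genes at a mean level of 4 or more 33.1% and 50.2%. The share of the core called lower is thus below both. The rings of the core were not alike in this: the 7 constitutive beta genes had medians of 0.22 in DDE against control and 0.21 in PXDDE against control, beside 0.24 and 0.21 for the 8 lid genes, while the 8 alpha genes had 0.10 and -0.12. Within each array the mean of the 19S genes minus the mean of the 20S genes, both taken relative to control, was 0.33, 0.36, 0.38 and 0.34 on the PXDDE arrays, 0.20, 0.16, 0.16 and 0.12 on the DDE arrays and -0.03, -0.01, 0.01 and 0.03 on the control arrays. All PXDDE arrays were above all DDE arrays, and these above all control arrays. Median centring cannot change this difference, and the same order without overlap was found with each of the other 4 scalings. It was smallest with the deposited values, at 0.22 to 0.28 in PXDDE, 0.06 to 0.14 in DDE and -0.01 to 0.02 in control. The genes were put in these 2 classes with earlier results known, so no p is given. The classes also differed in brightness, with a median level of 5.06 for the 19S genes and 5.96 for the 20S genes. Genes at a mean level of 4 or more had a median change of -0.16 in PXDDE against DDE, where all genes had -0.04. The part of the level in the difference between the classes was not tested.

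The level of the core itself depended on the scaling. The mean of its 15 genes relative to control lay between -0.04 and 0.08 on the PXDDE arrays with the 75th percentile, and between 0.25 and 0.32 with the deposited values, while it lay between 0.12 and 0.17, and between 0.16 and 0.20, on the DDE arrays. Across all 6 scalings, 13 to 17 genes of the 19S particle were called higher in DDE against control, 6 to 13 in PXDDE against DDE and 13 to 17 in PXDDE against control, and at most 1 was called lower in any of them. For the 20S core the numbers called higher were 7 to 15, 1 to 6 and 7 to 12, and those called lower 0, 0 to 6 and 0 to 4.

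**Figure D4:**
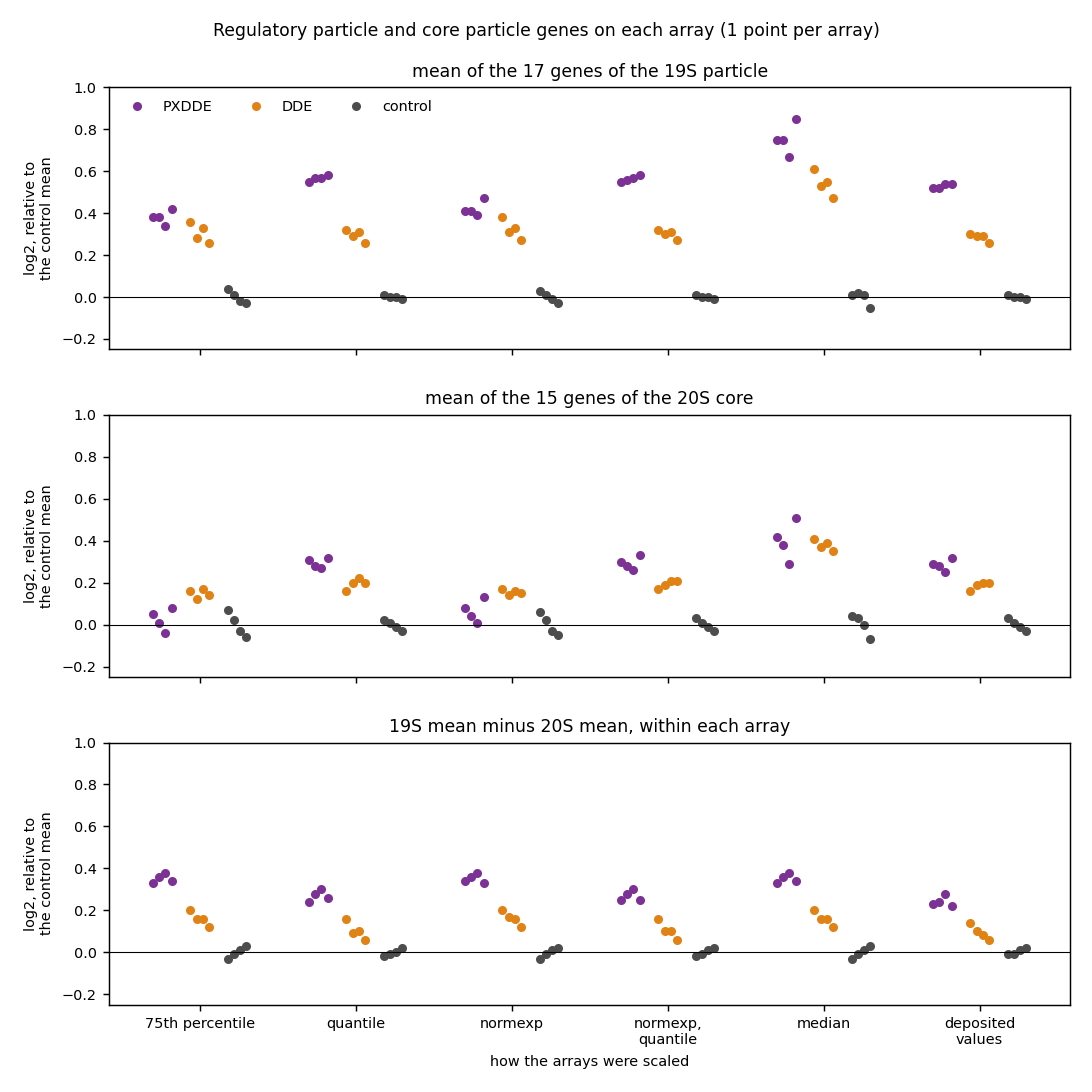
Mean log2 value of the 17 genes of the 19S particle, of the 15 genes of the 20S core, and the difference between both within an array, relative to the mean of the control arrays, for 6 ways of scaling the arrays; 1 point per array. The 19S mean is higher in PXDDE and in DDE than in control in each of the 6. The 20S mean of PXDDE lies near control with the 75th percentile and normexp and above DDE with quantile normalization. The difference is 0.22 to 0.38 on PXDDE arrays, 0.06 to 0.20 on DDE arrays and -0.03 to 0.03 on control arrays.

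Several probes per gene gave a check of these calls within the array. Of the 27 members called higher in DDE against control, 17 had other kept probes, 22 in all, of which 17 changed in the same direction and 5 were called in the opposite one. Members not called there, such as Psma4 and Psmd6, are outside this count. In PXDDE against DDE none of 21 other probes was called opposite to its gene. The other probe of Psmc1 overlaps its brightest probe, as the second probe of Psmb2 does, so their agreement is no independent check. The 5 opposite probes belonged to Psmb2, Psmc2, Psmd1, Psmd7 and Psmg2, and in PXDDE against control to Psmb2, Psmc2, Psmd1 and Psmg2 among the members called higher and Psme3 among those called lower. Psmb2, a structural beta subunit, shows the pattern. Its brightest probe, called higher in DDE against control unless DDE array 2, 3 or 4 or control array 4 was left out (adjusted p up to 0.0608, limma), measured 2.44, 2.31, 2.30 and 2.35 on the PXDDE arrays, 2.05, 2.38, 2.41 and 2.41 on the DDE arrays and 2.03, 2.13, 2.12 and 1.95 on the control arrays. That probe and the next overlap by 36 bases (in capitals) and both run from one side to the other of a gap of 2784 bases on the plus strand, at chr4:126361456-126364299 and chr4:126361432-126364275 (mm9). The remaining probe, at chr4:126362768-126362827 on the same strand, lies inside that gap.
Psmb2, brightest probe: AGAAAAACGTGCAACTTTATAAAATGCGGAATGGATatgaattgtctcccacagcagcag
Psmb2, second probe: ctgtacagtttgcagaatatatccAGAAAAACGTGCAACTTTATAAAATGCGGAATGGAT
Psmb2, probe in the gap: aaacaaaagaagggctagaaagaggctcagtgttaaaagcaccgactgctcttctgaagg

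Both probes over the gap changed by 0.26 in DDE against control, and by 0.29 and 0.34 in PXDDE against control. The probe inside the gap changed by -0.37 and -0.76 in the same comparisons, at a mean level of -0.68, against 2.24 and 2.17 for the other 2. Psmd1 had 3 probes with changes of 0.46, 0.69 and 0.58 in DDE against control and 1 more, at a level of -3.58, with -0.53. Psmd7 had a second probe at a level of -0.63 that changed by -0.54 where the brightest changed by 0.22. That brightest probe measured 3.43, 3.33, 3.24 and 3.42 on the PXDDE arrays, 3.52, 3.41, 3.52 and 3.47 on the DDE arrays and 3.39, 3.27, 3.13 and 3.25 on the control arrays. Its DDE arrays were above all control arrays, and PXDDE overlapped with both.

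Such probes carried another kind of identifier than a RefSeq mRNA (NM) accession, a split made after the values were seen. Of the 74 kept probes of members with such an accession 44 were called higher and 2 lower in DDE against control, where all such probes gave 27.4% and 19.4%. Of the 11 kept probes with other identifiers 3 were called higher and 7 lower, where all such probes gave 12% and 37.2%. In PXDDE against DDE 16 of the 74 were called higher and 22 lower (all such probes 22.1% and 22.8%), and 1 of the 11 higher and 6 lower (9.91% and 37.8%). In PXDDE against control 39 of the 74 were called higher and 17 lower (37.5% and 30.3%), and 3 of the 11 higher and 8 lower (15.9% and 54.8%). Those 11 were also dimmer, with a median level of -1.27, against 4.45 for the 74, and the part of the level in this split was not tested.

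**Figure D5:**
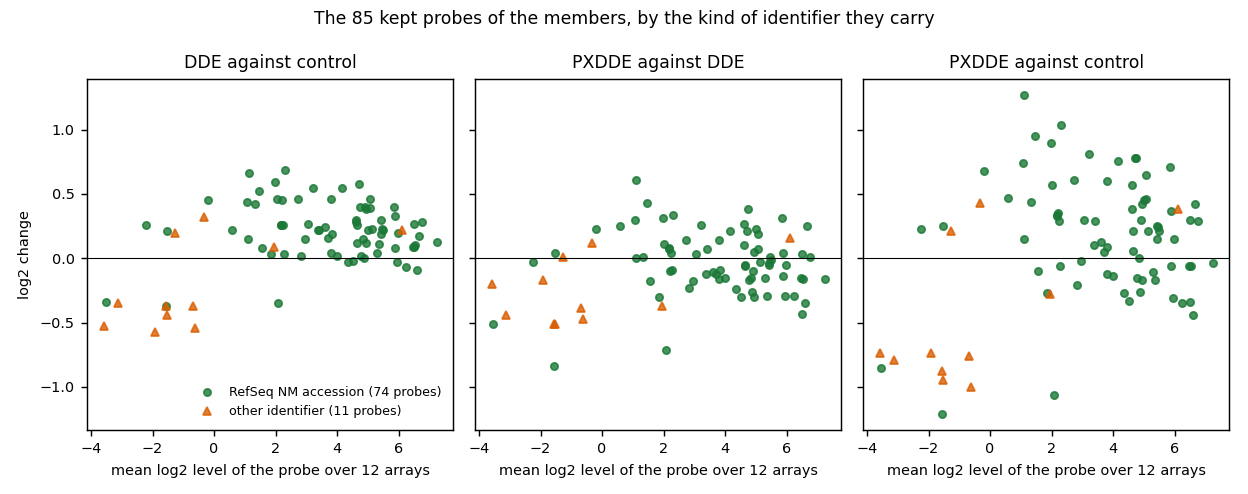
Log2 change of each of the 85 kept probes of the members against the probe's mean log2 level, in the 3 comparisons; circles have a RefSeq mRNA accession (74) and triangles another identifier (11). Most of the triangles lie at a level below 0 and below the line of no change, while most circles above a level of 0 lie above it in DDE against control.

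Proteasome genes with other names numbered 11 in a list of their own. In DDE against control 7 were called higher and 0 lower, in PXDDE against DDE 0 and 3, and in PXDDE against control 6 and 3, with medians of 0.16, 0.01 and 0.21. Over all genes the shares called higher and lower were 24.0% and 26.3%, 20.2% and 29.7%, and 31.6% and 39.3% in this order. Under the other scalings the counts in PXDDE against DDE were 1 to 6 higher and 0 to 3 lower. The ubiquitin receptor Adrm1, a subunit of the 19S base, measured 6.26, 6.31, 6.31 and 6.34 on the PXDDE arrays, 6.28, 6.18, 6.27 and 6.18 on the DDE arrays and 5.60, 5.63, 5.63 and 5.65 on the control arrays. Both p,p'-DDE groups were above control, with a change of 0.60 in DDE against control (adjusted p = 3.91e-07, limma), as large as that of Psmd5. Pomp, which completes the assembly of the core, measured 7.23, 7.20, 7.13 and 7.29 on the PXDDE arrays, 7.57, 7.49, 7.50 and 7.44 on the DDE arrays and 7.59, 7.50, 7.38 and 7.41 on the control arrays. All PXDDE arrays were below all others. It was lower in PXDDE by 0.29 than in DDE (adjusted p = 0.00131, limma) with the 75th percentile, and by 0.03 with quantile normalization, while the deposited values gave 0.03 above. Shfm1, the small lid subunit, changed by -0.28 in PXDDE against DDE, and by 0.04 with quantile normalization. The deubiquitinase Usp14 and the stress-induced proteasome partner Zfand2a changed by 0.31 and 0.73 in DDE against control.

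Among NFE2L1, its relatives and partners, and the genes that process it or turn it over, 4 of 11 were called higher and 1 lower in DDE against control, 2 and 1 in PXDDE against DDE, and 5 and 2 in PXDDE against control, with medians of 0.09, -0.00 and 0.15. All genes gave 24.0% and 26.3%, 20.2% and 29.7%, and 31.6% and 39.3% in the same order. Nfe2l1 itself measured 3.33, 3.13, 3.24 and 3.13 on the PXDDE arrays, 3.25, 3.24, 3.38 and 3.30 on the DDE arrays and 3.22, 3.17, 2.77 and 3.05 on the control arrays. All DDE arrays were above all control arrays, PXDDE overlapped with both, and the change in DDE against control was 0.24 (adjusted p = 0.0462, limma). Nfe2l2, its relative and the regulator of the antioxidant response, measured 3.50, 3.40, 3.39 and 3.46 on the PXDDE arrays, 3.43, 3.54, 3.52 and 3.51 on the DDE arrays and 3.31, 3.22, 3.18 and 3.10 on the control arrays. It was higher than control on all arrays of both p,p'-DDE groups, by 0.30 in DDE. The ubiquitin ligase Syvn1, which with Sel1l turns NFE2L1 over, rose at each step, by 0.58 and 0.44, and Sel1l by 0.38 and 0.35. Maff, a small partner of both factors, was lower by 0.59 in PXDDE than in DDE.

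Upstream of the proteasome, 9 of 16 tested genes of p97 (Vcp), its cofactors and the ubiquitin shuttles were called higher and 1 lower in DDE against control, 8 and 0 in PXDDE against DDE, and 14 and 1 in PXDDE against control, with medians of 0.24, 0.15 and 0.38. These counts, and those of the ubiquitin genes below, stand beside 24.0% and 26.3%, 20.2% and 29.7%, and 31.6% and 39.3% of all genes. Vcp, the segregase that pulls ubiquitinated proteins from membranes, measured 5.76, 5.84, 5.80 and 5.93 on the PXDDE arrays, 5.32, 5.18, 5.18 and 5.26 on the DDE arrays and 4.68, 4.75, 4.71 and 4.74 on the control arrays. It had no overlap between groups and changed by 0.52, 0.59 and 1.11 in DDE against control, PXDDE against DDE and PXDDE against control. The shuttle Ubqln2 changed by 0.58, 0.23 and 0.81. Of the 6 ubiquitin genes and ubiquitin-activating enzymes 3 were called higher and 2 lower in DDE against control, 2 and 2 in PXDDE against DDE, and 3 and 2 in PXDDE against control. Rps27a, which joins ubiquitin to a ribosomal protein, was lower by 0.39 in DDE than in control and by 0.71 in PXDDE than in DDE. The first enzyme of the cascade, Uba1, was higher by 0.30 and by 0.40 in the same comparisons.

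In antigen presentation by MHC class I, 10 of 15 genes were called higher and 2 lower in DDE against control, 3 and 1 in PXDDE against DDE, and 11 and 2 in PXDDE against control, with medians of 0.21, 0.05 and 0.34. The shares of all genes were 24.0% and 26.3%, 20.2% and 29.7%, and 31.6% and 39.3% in the same order. Under the other scalings 6 to 10 of the 15 were called higher and 0 to 1 lower in PXDDE against DDE. The peptide transporter gene Tap1, which shares a promoter region with Psmb9, measured 1.41, 1.57, 1.47 and 1.61 on the PXDDE arrays, 1.56, 1.17, 1.29 and 1.23 on the DDE arrays and 0.80, 0.91, 0.91 and 0.85 on the control arrays. It was above control in both p,p'-DDE groups, by 0.44 in DDE, where Psmb9 changed by 0.02 (adjusted p = 0.749, limma). Tapbp, which loads the peptides, changed by 0.64 in DDE against control. The class I transactivator Nlrc5 measured -1.91, -2.10, -2.04 and -2.28 on the PXDDE arrays, -1.92, -1.71, -1.78 and -1.81 on the DDE arrays and -1.31, -1.40, -1.41 and -1.61 on the control arrays. All control arrays were above the others, and Nlrc5 was lower by 0.38 in DDE than in control.

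Of the 14 autophagy genes 8 were called higher and 0 lower in DDE against control, 4 and 5 in PXDDE against DDE, and 7 and 4 in PXDDE against control, with medians of 0.21, -0.06 and 0.16. Among all genes these shares were 24.0% and 26.3%, 20.2% and 29.7%, and 31.6% and 39.3%. The receptor Sqstm1, which carries ubiquitinated cargo, measured 7.09, 7.15, 7.16 and 7.18 on the PXDDE arrays, 6.66, 6.63, 6.60 and 6.52 on the DDE arrays and 6.40, 6.30, 6.31 and 6.15 on the control arrays. The groups did not overlap, and it changed by 0.31 in DDE against control and 0.54 in PXDDE against DDE. Map1lc3b, which anchors receptors in the membrane of the autophagosome, changed by -0.08 and -0.73. Of the changes called and named in these lists, those of Pomp and Shfm1 turned in sign under some of the other 5 scalings, and those of Nfe2l1 and Nlrc5 kept their sign and lost their call under some.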

How the data were processed

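Liver RNA was hybridised to 12 arrays of 1 colour (Cy3) on 5 slides. The spot intensities were deposited as made by Feature Extraction 11.5.1.1, per the file headers, with the background subtracted and spatial and multiplicative detrending within each array. The submitters' processing notes also name RMA and limma, with no role. The authors' deposited value table holds log2 values with column medians of 5.3243 to 5.3479 and a correlation with the log2 signal of the same array of 0.9949 to 0.9964, so that higher means brighter. The sources used here do not give its normalization steps or centring, and it served as an alternative. The design build is mm9, per the file headers.

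From the 59305 spots that are not controls (62976 with them), outlier spots (102 to 177 an array) were left out and log2 gProcessedSignal was scaled by each array's 75th percentile. Spots of a probe were averaged, and 27098 of 56605 probes were kept, those for which every array of some group was well above background. The brightest kept probe stood for a gene. All 18678 genes were fitted over 12 arrays with limma 3.58.1 (R 4.3.3, package data.table in version 1.17.8) and adjusted by Benjamini-Hochberg. Within-array differences of 3 pairs had exact two-sided permutation tests, 9 in all, whose smallest p is 0.0286. On simulated data for DDE against control, with 50 of 18678 genes changed at each size, 26, 72, 96 and 96% were recovered at log2 sizes of 0.25, 0.5, 1 and 2, and 3 unchanged genes were called. Far fewer genes were changed there than were called in the data (24.0% higher and 26.3% lower). The Benjamini-Hochberg limit was thus stricter in the simulation, and its recovered shares do not carry over to the data. The members and lists were chosen with earlier results of these data known. Values are given for the members with the smallest adjusted p of each role (up to 3), both members of each catalytic pair, members called against the majority or with disagreeing probes, up to 4 genes of a pathway list, and a few named regulators. Alternatives were 5 other scalings, other filters on dim probes, outlier spots kept, the mean of a gene's probes, eBayes with a trend, only the groups compared, slide or replicate number as a block, and each array left out.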

Additional observations from a re-analysis of the deposited data

Results flagged for a closer look

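In 8 of the 144 groups of 4 values tested (48 members in 3 groups), 1 array stood apart from the other 3, by Dixon's 95% limit for the gap as a share of the group's range. Chance gives such a gap in about 1 of 20 groups.

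For Psma1, control array 4 read 4.56, against 4.71 to 4.72 on the other control arrays. For Psmb2, DDE array 1 read 2.05, against 2.38 to 2.41 on the other DDE arrays. For Psmb3, control array 3 read 6.26, against 6.33 to 6.34. For Psmd10, control array 1 read 3.08, against 2.85 to 2.89, and the change in DDE against control was 0.21 (adjusted p = 0.0131, limma) without it. For Psmd13, PXDDE array 4 read 5.43, against 5.46 on each of the others, and control array 1 read 5.16, against 5.34 to 5.36. For Psmd4, PXDDE array 2 read 5.97, against 6.02 to 6.03. For Psmg2, control array 4 read -1.61, against -1.35 to -1.32.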

How the results depend on the processing

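All called rises of members kept their sign under the 6 scalings. Of the 17 called falls in PXDDE against DDE 12 kept it, and of the 13 in PXDDE against control 2 did, or 7 without median centring. Quantile normalization gave 23 members higher and 6 lower in PXDDE against DDE (median change 0.09) and 6 lower in PXDDE against control (median 0.38). Normexp with quantile normalization gave 22, 6 and 0.11, and 6 and 0.34. The authors' deposited values gave 21, 6 and 0.11, 6 and 0.31, and 1 member lower in DDE against control. Median centring, which moves all genes of an array alike, gave 45 higher and 0 lower (median 0.42) in DDE against control, 4 lower (median 0.09) in PXDDE against DDE, and 40 higher and 2 lower (median 0.53) in PXDDE against control. Normexp alone gave 8 lower in PXDDE against control, and the mean of a gene's probes 4 lower in DDE against control. The cause of the other shifts was not tested. With no filter on dim probes 29.3, 24.5 and 26.5% of all calls were higher in the 3 comparisons, and the counts of members stayed within 1.5 times the main ones.

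In the catalytic pairs, more tests passed after adjustment under other scalings. With quantile normalization Psmb8 minus Psmb5 differed by -0.09 in DDE against control, -0.24 in PXDDE against DDE and -0.33 in PXDDE against control, Psmb9 minus Psmb6 by -0.34, -0.19 (0.01 in the main result) and -0.53, and Psmb10 minus Psmb7 by -0.36 and -0.50 in the last 2 comparisons. Normexp with quantile normalization gave -0.09, -0.18 and -0.26 for the first pair and -0.33, -0.18 and -0.51 for the second, and the deposited values -0.06, -0.15 and -0.21, and -0.31, -0.21 and -0.52.

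Quantile normalization turned the sign, in PXDDE against DDE, of Psma2, Psma3, Psma4, Psma6, Psmb10, Psmb4, Psmb5, Psmc2, Psmd12 and Psmd13 (to 0.16, 0.01, 0.17, 0.03, 0.07, 0.26, 0.18, 0.23, 0.28 and 0.23). Quantile normalization turned the sign, in PXDDE against control, of Psma2, Psma3, Psma4, Psma5, Psma6, Psma7, Psmb10, Psmb6 and Psme2b (to 0.40, 0.09, 0.39, 0.04, 0.06, 0.14, 0.11, 0.39 and 0.05). Normexp with quantile normalization turned the sign, in PXDDE against DDE, of Psma2, Psma4, Psma6, Psmb10, Psmb4, Psmc2, Psmd12 and Psmd13 (to 0.14, 0.17, 0.03, 0.11, 0.28, 0.21, 0.24 and 0.18). Normexp with quantile normalization turned the sign, in PXDDE against control, of Psma2, Psma3, Psma4, Psma5, Psma6, Psma7, Psmb10, Psmb6 and Psme2b (to 0.38, 0.07, 0.37, 0.14, 0.08, 0.15, 0.17, 0.39 and 0.03). The authors' deposited values turned the sign, in DDE against control, of Psme2b (to 0.12). The authors' deposited values turned the sign, in PXDDE against DDE, of Psma2, Psma3, Psma4, Psma6, Psmb10, Psmb4, Psmc2 and Psmd12 (to 0.14, 0.01, 0.18, 0.05, 0.11, 0.24, 0.18 and 0.17). The authors' deposited values turned the sign, in PXDDE against control, of Psma2, Psma3, Psma4, Psma5, Psma6, Psma7, Psmb10, Psmb6 and Psme2b (to 0.41, 0.06, 0.37, 0.13, 0.10, 0.17, 0.16, 0.40 and 0.05). Median centring turned the sign, in DDE against control, of Psma3 and Psma6 (to 0.21 and 0.16). Median centring turned the sign, in PXDDE against control, of Psma2, Psma3, Psma4, Psma5, Psma6, Psma7, Psmb1, Psmb10, Psmb6, Psmb9, Psmc6, Psmd10, Psmd9, Psme3, Psmg1 and Psmg3 (to 0.32, 0.06, 0.31, 0.20, 0.02, 0.04, 0.25, 0.26, 0.34, 0.24, 0.20, 0.35, 0.27, 0.10, 0.23 and 0.16). The mean of a gene's probes turned the sign, in DDE against control, of Psmc2, Psmd7, Psmg2 and Psmg3 (to -0.04, -0.16, -0.05 and -0.21). The mean of a gene's probes turned the sign, in PXDDE against control, of Psmb2, Psmc2, Psmd7, Psme3 and Psmg2 (to -0.04, -0.32, -0.45, 0.08 and -0.09).

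Leaving out 1 array at a time gave 22 to 29 members higher and 2 lower each time in DDE against control (median 0.16 to 0.21, the lowest without DDE array 1), 8 to 10 and 13 to 18 in PXDDE against DDE (-0.08 to -0.04), and 23 to 26 and 9 to 14 in PXDDE against control (0.14 to 0.18). The replicate numbers of the groups did not pair the arrays: same-numbered arrays correlated at -0.37 to 0.13, and 0 arrays correlated best with their own number. A fit with the replicate number as a block (replicate block) gave 26 and 2, 8 and 15, and 24 and 13 members higher and lower in the 3 comparisons. With the slide as a block the counts were 26 and 2, 8 and 15, and 24 and 12. Arrays of different groups on 1 slide had deviations that correlated at a median of 0.19 (9 pairs, 5 of them over 0.1), against -0.01 on different slides (39 pairs). The slide block ended the calls of Psma8 and Psmd13 in DDE against control, of Psma4, Psmd10, Psmd11, Psmf1 and Psmg1 in PXDDE against DDE, and of Psma5, Psmb4 and Psmg1 in PXDDE against control. Within the slides shared by the compared groups, the median change of the members was 0.09 to 0.20, -0.14 to 0.00 and 0.12 to 0.20 in the 3 comparisons, that of the 19S genes 0.22 to 0.30, 0.02 to 0.05 and 0.32 to 0.39, and that of the 20S genes 0.03 to 0.15, -0.21 to -0.08 and -0.12 to 0.06. Psmb11 and dim probes of other members lay near background, where the arrays limit what can be seen.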
